A study of Mus musculus with 40 samples.

Results

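Transcripts of 42 genes that write, read or erase DNA methylation and histone marks were followed in liver and kidney of mice given phenobarbital (PB) and of control mice. The members were chosen by gene symbol for what their proteins do and were matched to the probe sets of the array. Of the 42, 41 had a probe set that carries their symbol alone, out of 18193 genes with such a probe set. The exception was Tdg, a glycosylase that removes oxidised methylcytosine, whose probe sets carry further gene symbols, so it has no value here.

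DNA methylation is copied onto the new strand by Dnmt1 with its partner Uhrf1 and is set up by Dnmt3a and Dnmt3b, while the Tet enzymes oxidise it and most of the Mbd proteins bind it. Histone tails are methylated by Polycomb complexes and other methyltransferases, cleared by the Kdm demethylases, acetylated by the p300, CBP and Kat enzymes and deacetylated by the Hdac enzymes and Sirt1. PB is a barbiturate that induces drug-metabolizing enzymes in liver through the nuclear receptor CAR, and promotes liver tumours in mice on long exposure.

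Animals of 1 group drank water with 0.05% (w/v) PB for 28 days (10 livers and 10 kidneys), and those of the other group were controls over the same 4 weeks (10 livers and 10 kidneys). All 20 mice were males of the B6C3F1/Crl cross, a hybrid of C57BL/6 and C3H/He parents that is used in carcinogenicity studies, 29 to 32 days old on arrival, with 5 days to acclimatise before dosing. Liver and kidney with the same donor number came from the same animal. Expression was measured on 40 Affymetrix Mouse430_2 arrays, 1 per tissue and animal, as MAS5 signals, a linear intensity for which the authors had set the trimmed mean of every array to 150. A gene with several probe sets was represented by the brightest of them across the 40 arrays, and a gene was tested where its mean signal reached 50 in at least 1 group compared. Since probe sets differ in how well they bind their transcript, levels were compared between animals and tissues and never between genes. Log2 signals were compared with limma, and a call means an adjusted p (Benjamini-Hochberg, over all genes tested) under 0.05.

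The labels held for the treatment and the tissues. Cyp2b10, the cytochrome P450 that PB is known to induce, lay between 9730.5 and 12773.5 in PB livers and between 15.7 and 49.5 in control livers, and stayed between 18.4 and 55.1 in PB kidneys and between 34.5 and 56.3 in control kidneys. All 9 hepatocyte markers with a probe set had means of at least 50 in both liver groups, and all 10 kidney tubule markers in both kidney groups. In both kidney groups 4 of the 9 hepatocyte markers also reached 50. In PB livers 0 of the 10 tubule markers did, and in control livers 2. The hepatocyte markers summed to a median of 123452 in PB livers and 13587 in PB kidneys, and to 127779 and 14639 in controls. Ass1 averaged 240 in livers and 309 in kidneys on PB, and 257 and 313 in controls. Hnf4a averaged 4359 and 4288 on PB, and 4928 and 4274 in controls. A few livers stood apart for markers of other cells. The 10 tubule markers summed to 451 in PB liver 17 (group median 185) and to 1776 and 447 in control livers 5 and 3 (group median 205). Of these 10, Kap averaged 153 in control livers and 37.7 in PB livers, and Slc34a1 50.6 and 35.4. The other 8 averaged under 50 in control livers, so the sum need not stand for all 10. The lymphocyte markers summed to 741 in control liver 3 (median 337), and the 4 bile duct markers to 311 in control liver 2 (median 113). The counts for PB in liver and for the difference of the PB effect were therefore also made without each of these livers.

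Most of the starts found for these genes had a feature that was not used to choose them, a high content of CpG dinucleotides, the sequence that the Dnmt enzymes methylate. The RefSeq promoter table of the build GRCm38.p6 (250 bases before to 50 after each start) held 34 of the 41 members, of which 30 (88.2%) had over 50% G and C with an observed over expected CpG ratio above 0.6, against 45.5% of 17492 protein-coding genes. The protein-coding genes were not limited to those with a signal in liver or kidney. The median was 24.5 CpGs in 300 bases (range 2 to 57) against 13 for protein-coding genes. Tet2 had the most (57), and Dnmt1 the fewest (2) at the first of its 3 starts in the table. The motif CACGTG, a palindrome read the same on both strands and bound by clock and MYC family factors, stood in 4 members (11.8%), against 7.90% of protein-coding genes. The 250 bases before the start of 5 members that were lower in PB liver are printed for this CpG content, 5′ to 3′ on the gene's strand, with each CpG in capitals:
Dnmt3b, chr2:153649199-153649448, plus strand, 21 CpGs: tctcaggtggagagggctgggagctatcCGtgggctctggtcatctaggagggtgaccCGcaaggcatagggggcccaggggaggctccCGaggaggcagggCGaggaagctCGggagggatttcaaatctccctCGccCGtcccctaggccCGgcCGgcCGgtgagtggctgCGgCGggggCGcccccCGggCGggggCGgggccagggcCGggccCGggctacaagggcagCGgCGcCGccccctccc
Ezh2, chr6:47595031-47595280, minus strand, 23 CpGs: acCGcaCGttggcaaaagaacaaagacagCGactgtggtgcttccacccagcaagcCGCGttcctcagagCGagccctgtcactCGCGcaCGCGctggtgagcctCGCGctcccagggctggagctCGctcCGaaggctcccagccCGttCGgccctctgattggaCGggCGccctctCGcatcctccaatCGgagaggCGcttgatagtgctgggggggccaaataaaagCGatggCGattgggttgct
Kdm3a, chr6:71632918-71633167, minus strand, 20 CpGs: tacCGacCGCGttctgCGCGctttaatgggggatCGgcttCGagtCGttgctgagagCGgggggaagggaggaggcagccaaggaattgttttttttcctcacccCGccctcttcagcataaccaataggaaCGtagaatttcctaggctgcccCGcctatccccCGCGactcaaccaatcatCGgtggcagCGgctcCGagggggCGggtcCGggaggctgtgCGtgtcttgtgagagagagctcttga
Kdm4a, chr4:118180044-118180293, minus strand, 12 CpGs: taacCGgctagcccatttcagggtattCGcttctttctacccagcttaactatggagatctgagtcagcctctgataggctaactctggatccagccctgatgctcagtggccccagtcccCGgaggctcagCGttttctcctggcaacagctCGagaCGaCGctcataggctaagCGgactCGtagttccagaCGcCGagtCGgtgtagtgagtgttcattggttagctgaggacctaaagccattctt
Crebbp, chr16:4213405-4213654, minus strand, 44 CpGs: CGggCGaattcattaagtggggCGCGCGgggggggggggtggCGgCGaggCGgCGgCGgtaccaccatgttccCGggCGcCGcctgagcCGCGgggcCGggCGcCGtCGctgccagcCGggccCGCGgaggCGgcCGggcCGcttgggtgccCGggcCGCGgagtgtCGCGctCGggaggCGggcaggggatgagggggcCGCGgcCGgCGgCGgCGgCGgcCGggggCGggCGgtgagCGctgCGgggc

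Kdm3a had 3 starts in the table, and the first is shown. Among the 5, the share of G and C in the 250 bases ran from 53.6% for Kdm4a and 59.6% for Kdm3a to 84% for Crebbp, so members called together in liver differed widely in this feature. CpG methylation at these starts was not analysed here, and the content is a description of the reference sequence.

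**Figure D1:**
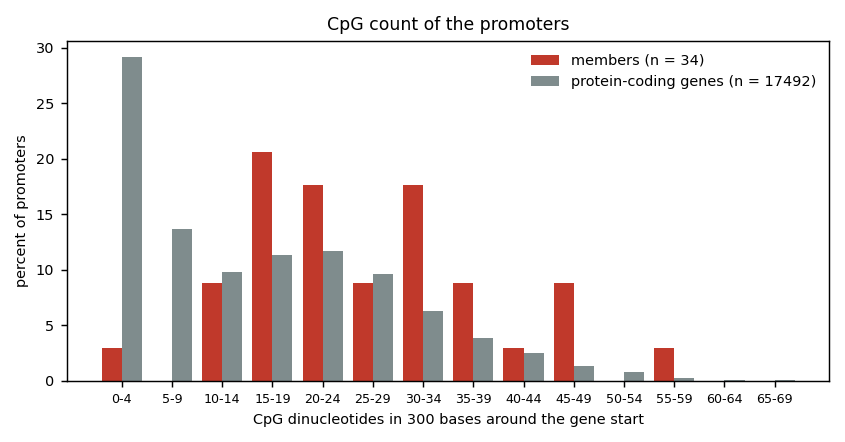
Share of promoters (y axis, percent) by number of CpG dinucleotides in 300 bases around the gene start (x axis, bins of 5), for 34 members (red) and 17492 protein-coding genes (grey). At least 20 CpGs were present in 67.6% of the members and in 36.1% of the protein-coding genes.

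Most members were measurable in both organs. Of the 41, 35 passed the signal filter in both tissues, Dnmt3b in liver alone and Hdac4 in kidney alone. Uhrf1, Tet1, Tet3 and Mbd4 stayed under a mean of 50 in all 4 groups and were not tested. Uhrf1, which guides Dnmt1 to freshly copied DNA, averaged 8.83 in PB livers and 12.4 in control livers, and 17.4 in PB kidneys and 17.6 in control kidneys. Animals of a group differed by a median coefficient of variation of 14.8% in PB livers and 15.0% in control livers over 36 members, and of 9.48% in PB kidneys and 10.1% in control kidneys. The widest spread of each group was that of Dnmt3b in PB livers (47.2%), Mbd1 in control livers (49.5%) and Tet2 in both kidney groups (27.8% on PB and 38.6% in controls). Tet2 also had the second widest spread in both liver groups (33.8% on PB and 39.3% in controls).

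After 28 days of PB, 6 of 36 tested members were lower and none was higher in liver. They were Mbd1, Kdm4a, Kdm3a, Dnmt3b, Ezh2 and Crebbp, and they came from 5 of the roles listed above. The share called, 16.7%, was close to the 15.6% of all 9920 genes tested in liver, of which 6.94% were higher and 8.7% lower (centring every array on its median turned 688 genes higher and 863 lower into 518 and 1008). At an unadjusted p under 0.05, 2 members were higher and 11 lower, where 13.3% and 16.5% of all genes were. For none did all PB livers lie on 1 side of all control livers, which 1.76% of the genes did. In all, 26 of the 36 differences (72.2%) were negative, against 53.8% over all genes, with a median of -0.09 on the log2 scale, against -0.02 over all genes. With quantile normalization 24 were negative, and Kat2a was called higher while Crebbp was not called, which gave 1 higher and 5 lower. In bulk tissue, fewer cells of a type and less RNA per cell cannot be told apart. Markers of other cells also moved in these livers: of those tested, 2 of 6 proliferation markers and 5 of 10 markers for stellate cells and fibroblasts were lower and none was higher, and the stellate list summed to 3002 to 3928 in PB livers and to 3689 to 4481 in control livers. Of the other lists, 2 of 9 hepatocyte, 1 of 11 macrophage and 1 of 8 endothelial markers tested were lower and none was higher. The endothelial list had a median sum of 1986 in PB livers and 2410 in control livers. The part of any of these cells in the changes of the members was not tested.

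**Figure D2:**
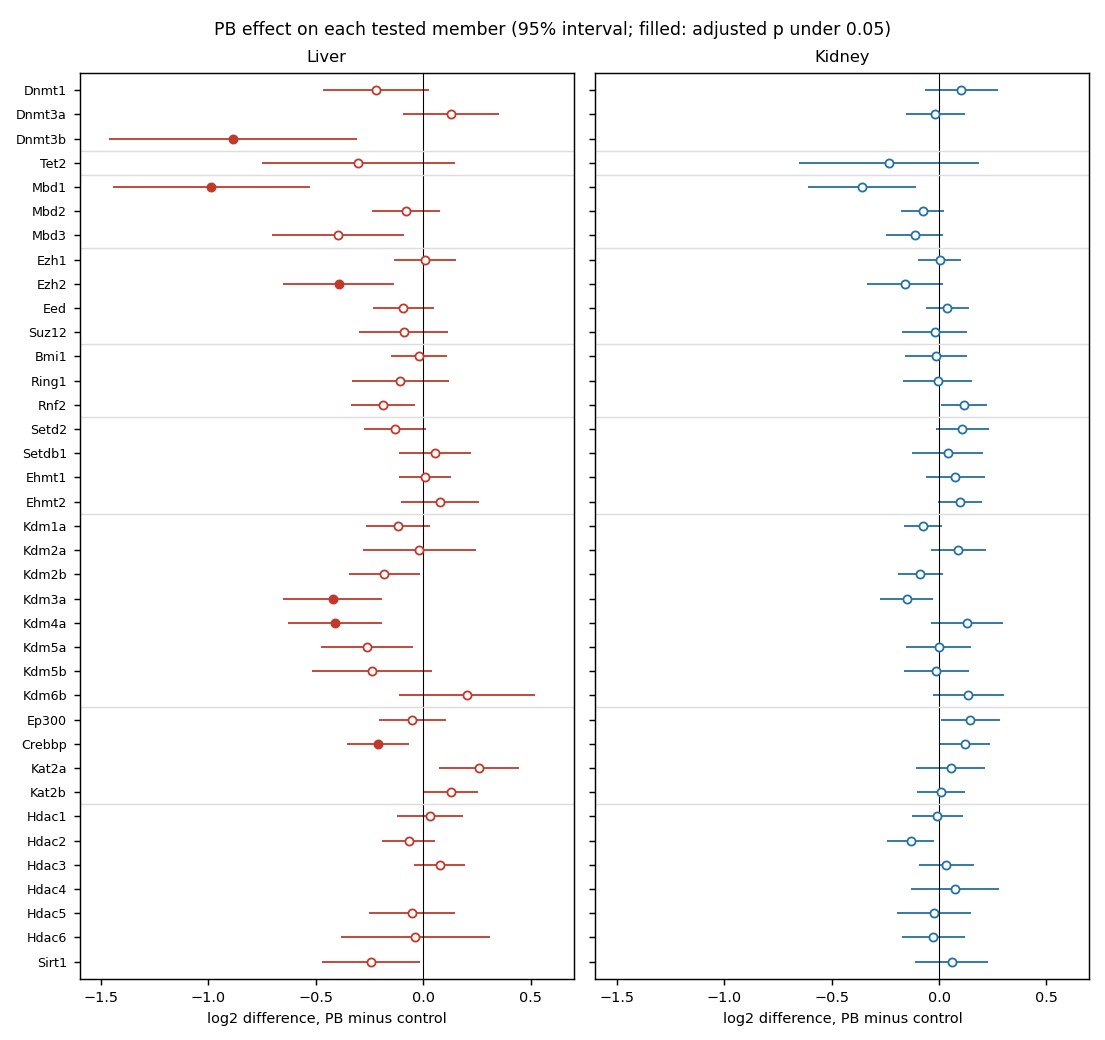
Difference of PB minus control on the log2 scale (x axis) for each tested member (rows, grouped by role), in liver (left, red) and kidney (right, blue), with 95% intervals; filled points passed an adjusted p of 0.05. In liver 6 points are filled, all left of 0, and in kidney none is.

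Mbd1, which binds methylated CpGs and recruits histone methyltransferases, had the largest decrease of the members called. Its signal ran from 313 to 647 in PB livers (median 520) and from 469 to 2299 in control livers (median 1068). The PB livers were closely grouped and the control livers were not, and 3 PB livers lay below every control liver, while 8 control livers, at 797 and more, lay above every PB liver. The mean was 524 ± 110 in PB livers and 1131 ± 560 in control livers (SD, n = 10 each), a log2 difference of -0.99 (standard error 0.22, adjusted p = 0.0034 from limma). At the fold and p limits of the study's methods, a ratio of means of at least 1.5 and a p of at most 0.001, Mbd1 was the only member to pass with the p from limma and 1 probe set per gene, as 2.65% of all genes did. The methods use a t-test, whose scale they do not state: the unadjusted p of Mbd1 was 0.00088 by Student's test on log2 signal, 0.0035 on linear signal and 0.0016 by Welch's test on log2 signal, so it passed by the first alone. Its 3 other tested probe sets had log2 differences of -0.58, -0.97 and -0.97, of which the first and the last passed (adjusted p = 0.0497, 0.0857 and 0.0201 from limma over 18981 probe sets), so the calls did not rest on 1 probe set. Mbd2 and Mbd3, further members of the family, had log2 differences of -0.08 and -0.40 (adjusted p = 0.53 and 0.0712 from limma), which did not pass. Mbd3 is a subunit of the NuRD corepressor and ranged from 73.7 to 153 in PB livers and from 80.7 to 169.6 in control livers.

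Of the DNA methyltransferases, the de novo enzyme Dnmt3b was lower in PB livers. Its signals were 24.1 to 136.5 in PB livers (median 108) and 110.9 to 207.8 in control livers (median 144). PB livers 13, 18 and 20, at 32.9, 41.8 and 24.1, were far below the other 7, and 5 of the 10 PB livers lay below every control liver. The mean was 91.6 ± 43.2 in PB livers and 148 ± 31.1 in control livers, a log2 difference of -0.88 (standard error 0.28, adjusted p = 0.0331 from limma). The call was lost when PB liver 13 or 18 or control liver 6, 8 or 9 was left out (highest adjusted p = 0.066), and the second Dnmt3b probe set was lower by 0.26 on the log2 scale without passing (adjusted p = 0.43 from limma over all probe sets). Dnmt1, the maintenance enzyme, averaged 96.8 in PB livers and 112 in control livers (log2 difference -0.22, adjusted p = 0.23 from limma). Dnmt3a, the other de novo enzyme, averaged 97.2 in PB livers and 88.3 in control livers (log2 difference 0.13, adjusted p = 0.45 from limma). Neither passed, and the 95% intervals ran from -0.47 to 0.03 for Dnmt1 and from -0.09 to 0.35 for Dnmt3a. Tet2, which oxidises methylcytosine, ran from 69.3 to 199.9 in PB livers and from 90 to 284 in control livers, and its log2 difference of -0.30 had an interval from -0.75 to 0.15.

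Ezh2, the catalytic subunit of Polycomb repressive complex 2 that methylates lysine 27 of histone H3, was the only Polycomb member called in liver. Its signal ran from 45.6 to 84.7 in PB livers (median 61.2) and from 60.4 to 113 in control livers (median 82.6). The groups overlapped, with 5 of 10 PB livers below every control liver. The mean was 64.2 ± 12.2 in PB livers and 84.2 ± 15.3 in control livers, a log2 difference of -0.39 (standard error 0.13, adjusted p = 0.0348 from limma). Ezh2 is known to rise in dividing cells, and in the same livers the proliferation markers summed to 1028 to 1493 (median 1137) on PB and to 1230 to 1667 (median 1338) in controls. Of that sum, Pcna alone averaged 652 on PB and 682 in controls and was not called, and 10 of the 15 markers averaged under 50 in PB livers. Whether dividing cells had a part in the change of Ezh2 was not tested. Its paralogue Ezh1, which serves the same complex in resting cells, had a log2 difference of 0.01 with an interval from -0.14 to 0.15. The partner subunits Eed and Suz12 each had a log2 difference of -0.09 and did not pass (adjusted p = 0.39 and 0.58 from limma). The call was lost when any 1 of 9 livers was left out (highest adjusted p = 0.0647 from limma). Without control liver 2, which also had the highest bile duct marker sum, the log2 difference of Ezh2 was -0.34 and its adjusted p 0.0621, and without control livers 2, 3 and 5 together -0.28 and 0.17, both from limma.

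Among the 8 histone demethylases, 2 were lower in PB livers, and both act on lysine 9 of histone H3. They belong to the Jumonji family of iron-dependent enzymes, as do the other 6 except Kdm1a. Kdm4a, which also acts on lysine 36, had signals of 93.4 to 187 in PB livers (median 123) and of 129.5 to 224 in control livers (median 165). In 8 of 10 PB livers Kdm4a lay below every control liver, and PB liver 17, at 187, was above 9 of the 10 control livers. The mean was 127 ± 24.5 in PB livers and 168 ± 26.3 in control livers, a log2 difference of -0.41 (standard error 0.11, adjusted p = 0.0101 from limma). Kdm3a, which removes methyl groups that keep genes silent and is known to be induced by low oxygen, ran from 127.9 to 217 in PB livers (median 165) and from 182 to 334 in control livers (median 213). Of the PB livers, 6 lay below every control liver, and control liver 1, at 334, stood apart from the other controls, whose highest value was 239. The mean was 167 ± 32.3 in PB livers and 223 ± 42.8 in control livers, a log2 difference of -0.42 (standard error 0.11, adjusted p = 0.0119 from limma). The other 6 demethylases did not pass, with log2 differences from -0.26 for Kdm5a (adjusted p = 0.0908 from limma) to 0.21 for Kdm6b, which clears the Ezh2 mark. Mbd1, Kdm4a and Kdm3a were called in liver whichever of the 20 livers was left out, with adjusted p values of at most 0.0079, 0.0208 and 0.025 from limma.

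The acetyltransferases did not move one way. Crebbp, known as CBP, a coactivator of many transcription factors, had signals of 182 to 228 in PB livers (median 201) and of 203 to 291 in control livers (median 228). Of the PB livers, 6 lay below every control liver. The mean was 204 ± 14.3 in PB livers and 237 ± 30.6 in control livers, a log2 difference of -0.21 (standard error 0.07, adjusted p = 0.0449 from limma), a small difference that was lost when any 1 of 12 livers was left out (highest adjusted p = 0.0861). Its close relative Ep300 had a log2 difference of -0.05 (interval -0.21 to 0.11). Kat2a and Kat2b, alternative catalytic subunits of the same coactivator complexes that acetylate lysine 9 of histone H3, had log2 differences of 0.26 and 0.13 (adjusted p = 0.0549 and 0.16 from limma), which did not pass.

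The 3 probe sets of Kat2a gave different answers, and the values below were looked up after the fit over all probe sets had been seen. The one with the second highest mean ran from 232 to 309 in PB livers (median 278) and from 125.6 to 167.8 in control livers (median 139). The 10 PB livers thus lay above all 10 control livers, which held for 1.36% of the probe sets tested in liver in either direction. Its mean was 272 ± 25.9 in PB livers and 143 ± 14.7 in control livers, a log2 difference of 0.93 (standard error 0.07, adjusted p = 1.47e-09 from limma over 18981 probe sets, of which 12.3% were called). In kidney it averaged 73.5 ± 11.2 on PB and 70.8 ± 16.4 in controls (log2 difference 0.08, adjusted p = 0.81 from limma), and the difference between the tissues, 0.85, passed (adjusted p = 0.00025 from limma). The probe set that stood for Kat2a above averaged 176 ± 15.8 in PB livers and 148.7 ± 26.9 in control livers, and the third 70.3 ± 10.9 in PB livers and 71.1 ± 10.7 in control livers (log2 difference -0.02, adjusted p = 0.92 from limma). Which of the 3 follows the Kat2a transcript was not tested. When genes were represented by their brightest probe set in liver alone, 7 members were called, with Kat2a as the 1 that was higher. It also passed the fold and p limits of the methods by limma and by each of the t-tests. Over all tested probe sets of members, 8 of 66 were called in liver (1 higher, 7 lower) and none of 63 in kidney, where 3.26% of all probe sets were.

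**Figure D3:**
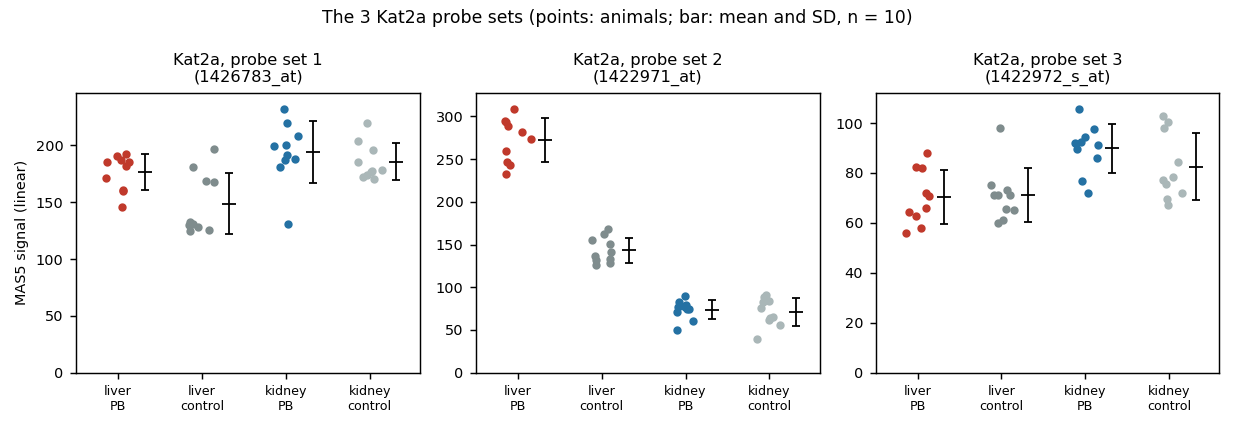
MAS5 signal (y axis, linear) of the 3 Kat2a probe sets in each animal (points) by tissue and treatment (x axis), with mean and SD (n = 10). In the middle panel the PB livers, at 232 to 309, lie above all control livers, at 125.6 to 167.8, and in the left and right panels the liver groups overlap.

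The remaining roles showed no call in liver. The 3 measured members of Polycomb repressive complex 1, which ubiquitinates histone H2A, had log2 differences of -0.19 (Rnf2, its catalytic subunit), -0.11 (Ring1) and -0.02 (Bmi1). The methyltransferases Setd2, which marks gene bodies on lysine 36, and Setdb1, Ehmt1 and Ehmt2, which mark silent chromatin on lysine 9, lay between -0.13 and 0.08. The 6 deacetylases tested lay between -0.24 for Sirt1, the NAD-dependent enzyme, and 0.08 for Hdac3. Of these 13 members, Rnf2 and Sirt1 had an unadjusted p under 0.05 (adjusted p = 0.0775 and 0.14 from limma).

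In kidney none of the 36 tested members was called, where 4.46% of 10048 genes were, 2.56% higher and 1.9% lower. At an unadjusted p under 0.05, 2 members were higher and 3 lower, where 11.3% and 8.5% of all genes were, and none was called under any alternative run in kidney. No member had all PB kidneys on 1 side of all control kidneys (0.239% of genes did), and none passed the fold and p limits above, by limma (0.518% of genes did) or by the t-tests. The lowest adjusted p was that of Mbd1, 0.0907 from limma. Its signal ran from 340 to 568.1 in PB kidneys (median 414) and from 360 to 755 in control kidneys (median 535), and the groups overlapped, with 3 PB kidneys below every control kidney. The mean was 422 ± 74 in PB kidneys and 549 ± 131 in control kidneys, a log2 difference of -0.36 with an interval from -0.61 to -0.11. Hdac2, a class I deacetylase, and Kdm3a followed, with log2 differences of -0.13 and -0.15 (adjusted p = 0.16 for each from limma). The differences of all 36 lay between -0.36 and 0.15, with 18 on either side of 0 and a median of 0.00, against 0.01 over all genes (25 were positive and 11 negative after median centring).

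The PB effect differed between liver and kidney for 3 of 37 members, Kdm4a, Crebbp and Rnf2, where 8.83% of 11193 genes did (4.02% with a higher and 4.81% with a lower value in liver). For each, the difference in liver was negative and that in kidney positive, although none of the kidney differences passed on its own. The liver difference of Rnf2 did not pass on its own either (log2 difference -0.19 in liver and 0.11 in kidney). Kdm4a had a log2 difference of -0.41 in liver and 0.13 in kidney, where it ran from 97.3 to 145.6 on PB (median 117) and from 88.2 to 126.7 in controls (median 111). Its difference of differences was -0.54 (standard error 0.14, adjusted p = 0.0081 from limma). Crebbp had -0.21 in liver and 0.12 in kidney, with signals of 306 to 407 in PB kidneys (median 357) and 291 to 385 in control kidneys (median 326). The difference of differences was -0.33 (standard error 0.09, adjusted p = 0.0157 from limma), and both further Crebbp probe sets had negative values that did not pass (-0.28 and -0.40). Rnf2 ran from 242.5 to 329.9 in PB livers (median 274) and from 266 to 357 in control livers (median 315). In kidney its signal was 273 to 353 on PB (median 320) and 249.6 to 342 in controls (median 286). Its difference of differences was -0.30 (standard error 0.09, adjusted p = 0.0233 from limma), and that of its second probe set, -0.23, did not pass (adjusted p = 0.27 from limma over all probe sets, of which 6.21% were called). All 3 calls held whichever of the 40 arrays was left out and with the animal as a fixed or random block. For Mbd1, Dnmt3b, Ezh2 and Kdm3a the differences between the tissues, -0.63, -0.93, -0.24 and -0.27, did not pass (adjusted p = 0.15 to 0.37 from limma), so their change was not shown to be particular to liver. With the animal as a block the difference of Mbd1 passed as a fixed block (adjusted p = 0.0388 from limma) and not as a random block (adjusted p = 0.12). Dnmt3b lay under 50 in both kidney groups (mean 25.3 on PB and 27.1 in controls), where a change would be hard to measure.

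**Figure D4:**
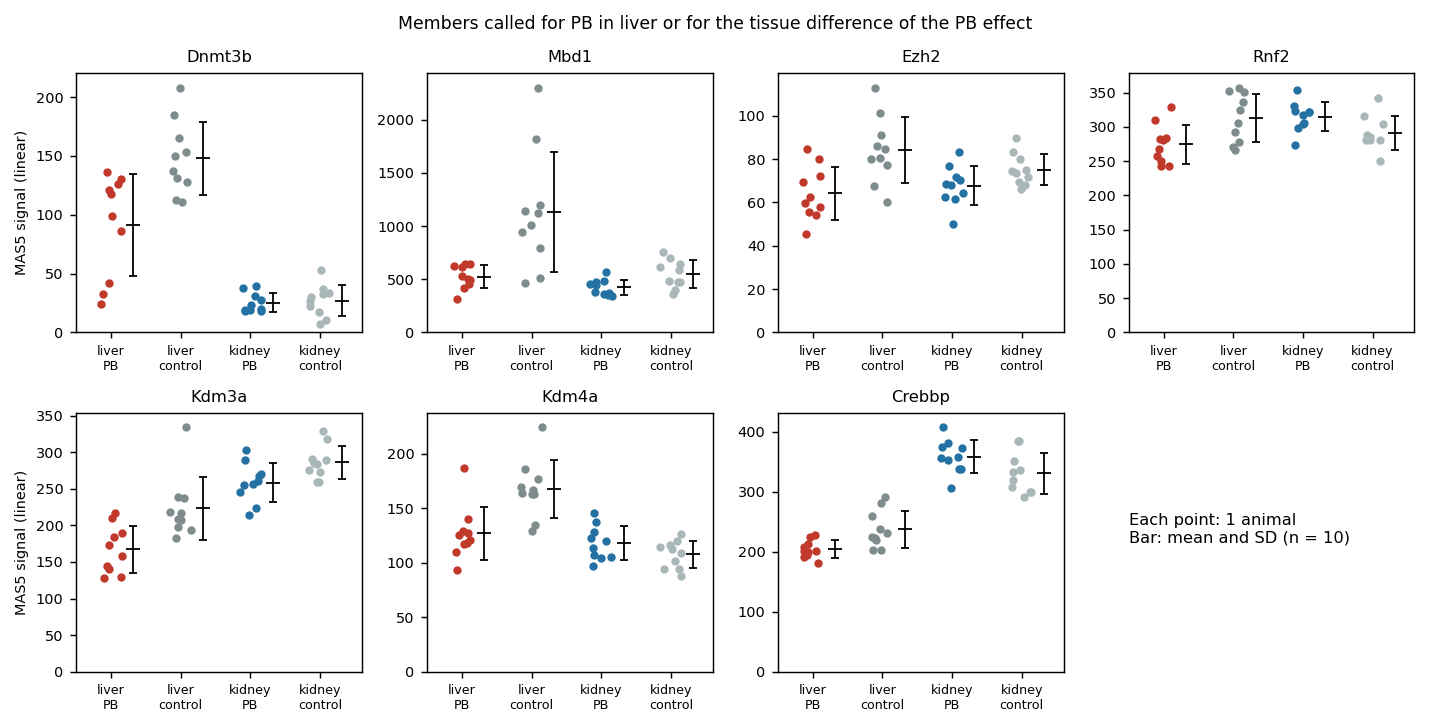
MAS5 signal (y axis, linear, starting at 0) of the 7 members called for PB in liver or for the tissue difference of the PB effect, in each animal (points), by tissue and treatment (x axis), with mean and SD (n = 10). The liver groups overlap in every panel; for Kdm4a, Crebbp and Rnf2 the PB mean is below the control mean in liver and above it in kidney.

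The members differed more between the organs than with treatment. In PB mice 27 of 37 were called between liver and kidney, 6 higher and 21 lower in liver, and in control mice 30, 9 higher and 21 lower. Of all 11193 genes, 81.9% were called in PB mice (36% higher, 46% lower) and 80.9% in control mice (36.8% higher, 44.1% lower), against 73.0% and 81.1% of the members. The split depended on the scaling: with quantile normalization 11 members were higher and 19 lower in PB mice and 15 and 17 in control mice, and with median centring, which moves the median of all genes by -0.13 in PB mice and by -0.08 in control mice, 4 and 24, and 8 and 21. In both kinds of mice 25 members were called with the same direction, 5 higher and 20 lower in liver. The median log2 difference was -0.28 in PB mice and -0.30 in control mice, against -0.11 and -0.08 over all genes, and with quantile normalization -0.13 and -0.14, against -0.02 and 0.01. In 11 members of PB mice and 9 of control mice all livers lay on 1 side of all kidneys, which 50.1% and 47.2% of all genes did. Livers and kidneys came from the same animals, and with the animal as a fixed block 28 members were called in PB mice and 31 in control mice.

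Tet2, Ezh1, Hdac2 and Hdac6 were lower in liver by a log2 difference of at least 1 in both kinds of mice, and Dnmt3b was higher in liver, with a difference that has only a lower bound. Of all genes, 14.6% in PB mice and 13.9% in control mice were called at least that much higher, and 20.4% and 20% that much lower. These differences are those of the brightest probe set. The second tested probe sets of Tet2, Ezh1 and Hdac2 were also lower in liver, by less. In PB mice they averaged 128, 46.2 and 133 in livers and 241, 67.7 and 255 in kidneys. In control mice the means were 144, 36.1 and 136 in livers and 286, 70.3 and 255 in kidneys, with those of Ezh1 in liver under 50. Dnmt3b averaged 91.6 in livers and 25.3 in kidneys of PB mice, and 148 in livers and 27.1 in kidneys of control mice. Since the kidney means are under 50, the liver level by this probe set was at least 1.83-fold higher in PB mice and at least 2.96-fold higher in control mice, with 50 taken as the kidney level. All 10 livers lay above all 10 kidneys in control mice, and in PB mice 8 livers did. The second tested Dnmt3b probe set had a smaller gap, and the organs overlapped in both kinds of mice. It averaged 55.7 in livers and 31.7 in kidneys of PB mice, and 66.5 and 32.7 in control mice. Dnmt3a had the opposite pattern, with 70.5 to 124 in livers (median 97) and 164 to 198 in kidneys (median 182) of PB mice, and 71 to 111 in livers (median 84.1) and 143 to 210.0 in kidneys (median 190.4) of control mice. Its log2 difference was -0.92 in PB mice and -1.06 in control mice (standard error 0.09 for each), and no liver reached the level of any kidney in either. The 2 de novo enzymes thus differed in opposite directions between the organs. Dnmt1, by contrast, was called in control mice alone (log2 difference 0.27, adjusted p = 0.0167 from limma), and its second tested probe set was called the other way there (-0.39), so its direction is unclear. Of the 22 members with several tested probe sets, such opposite calls occurred in 1 in PB mice (Kat2a) and in 3 in control mice (Dnmt1, Hdac4, Kat2a), where 79.2% and 78.1% of all probe sets were called.

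Tet2, the one Tet enzyme tested, ran from 69.3 to 199.9 in livers (median 129) and from 279 to 564 in kidneys (median 478) of PB mice, and no liver reached a kidney value. In control mice it ran from 90 to 284 in livers (median 154) and from 237 to 869 in kidneys (median 467), with 8 of 10 livers below every kidney. The log2 difference was -1.75 in PB mice and -1.68 in control mice (standard error 0.22, adjusted p = 3.36e-09 and 8.75e-09 from limma). Among the Polycomb subunits of the 42, Ezh1 had the largest difference, with 171 to 232 in livers (median 198) and 449.7 to 529 in kidneys (median 471) of PB mice, and 159 to 228 in livers (median 198) and 428 to 538 in kidneys (median 489) of control mice. Its log2 difference was -1.31 in both, with a standard error of 0.06 and no overlap between the organs. Ezh2 did not pass in either (log2 difference -0.09 in PB mice and 0.15 in control mice), so the 2 paralogues differed in this respect. Bmi1 and Suz12 were lower in liver in both kinds of mice (log2 difference -0.59 and -0.56 in PB mice, -0.59 and -0.49 in control mice).

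Hdac6, the mainly cytoplasmic deacetylase of tubulin, had the largest deficit in liver. It ran from 72.1 to 178 in livers (median 113) and from 326 to 454.5 in kidneys (median 391.6) of PB mice. In control mice it ran from 71.4 to 171 in livers (median 112) and from 325 to 473.5 in kidneys (median 387). The log2 difference was -1.80 in PB mice and -1.79 in control mice (standard error 0.13), with every liver below every kidney. Hdac2 ran from 242 to 281 in livers (median 261) and from 460.2 to 588 in kidneys (median 545) of PB mice, and from 230.5 to 312 in livers (median 276) and from 534 to 679 in kidneys (median 575) of control mice. Its log2 difference was -1.03 in PB mice and -1.09 in control mice (standard error 0.05). Its partner Hdac1 was lower in liver by a log2 difference of -0.49 in PB mice and -0.53 in control mice, and Hdac3, the deacetylase of the NCOR corepressor, was higher by 0.27 and 0.23. The deacetylases therefore did not share 1 direction.

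Among the acetyltransferases, Ep300 was lower in liver by -0.97 on the log2 scale in PB mice and -0.78 in control mice (standard error 0.07), and Crebbp by -0.81 and -0.48 (standard error 0.06). For both, every liver of PB mice lay below every kidney. Of the demethylases, Kdm2b, which recruits Polycomb complexes to unmethylated CpG islands, was lower in liver by -0.90 in PB mice and -0.81 in control mice (standard error 0.07), with no overlap in either. Its second tested probe set had a smaller gap, and there the organs overlapped in both kinds of mice. That probe set averaged 88.3 in livers and 117 in kidneys of PB mice, and 95.9 and 127 in control mice. Kdm5b, which removes methyl groups from lysine 4 of histone H3, was higher in liver by 0.50 in PB mice and 0.73 in control mice (standard error 0.11). Kdm4a was higher in liver in control mice, where all 10 livers lay above all 10 kidneys (log2 difference 0.63, adjusted p = 1.43e-07 from limma), and not called in PB mice (0.09, adjusted p = 0.37 from limma). Mbd1 was also called higher in liver in control mice (0.93) and not in PB mice (0.30), but unlike Kdm4a its difference of the PB effect between the organs did not pass in the main fit. The methyltransferases Setd2 and Ehmt1 were higher in liver in both, by 0.23 and 0.39 in PB mice and 0.47 and 0.45 in control mice, and Ehmt2 was lower, by -0.38 and -0.36.

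**Figure D5:**
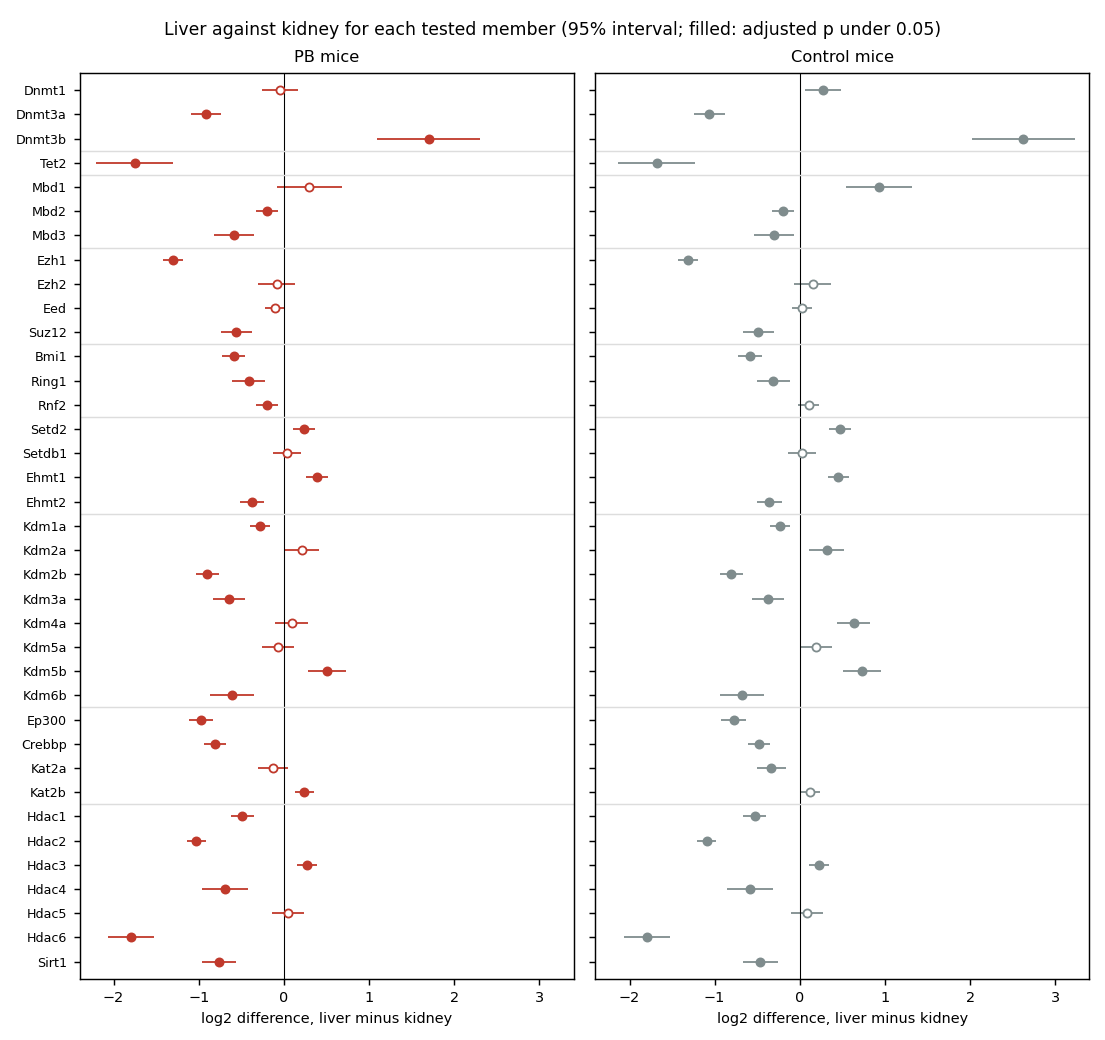
Difference of liver minus kidney on the log2 scale (x axis) for each tested member (rows, grouped by role), in PB mice (left, red) and control mice (right, grey), with 95% intervals; filled points passed an adjusted p of 0.05. Hdac6 and Tet2, between -1.68 and -1.80, lie far to the left; Dnmt3b is drawn at its fitted value, which is not an exact difference since its kidney means are under 50.

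Enzymes and subunits outside the 42 that serve the same reactions were listed by function, 148 genes in all, of which 138 had a probe set. In liver, 11 of 126 tested were higher and 10 lower on PB, with a median log2 difference of -0.09 (-0.02 over all genes), and in kidney none of 123 was called. The related genes called in liver were 16.7% of those tested, near the 15.6% of all genes, so the genes below are given as single values. The largest increases were those of Gadd45b, a stress response gene linked to active demethylation, which averaged 134.6 in PB livers and 19.9, under the filter of 50, in control livers (adjusted p = 4.09e-05 from limma), and Hdac11, the class IV deacetylase, which averaged 345 in PB livers and 226 in control livers (0.64, adjusted p = 0.00076 from limma). Idh1 and Idh2, whose normal product 2-oxoglutarate is a cofactor of the Tet and Jumonji enzymes, were higher by 0.28 and 0.47 (adjusted p = 0.0026 and 0.00039 from limma). Of the 13 related DNA methylation factors tested, 3 were higher and 2 lower, the cytidine deaminase Apobec1 (-0.63) and the CpG-binding protein Cxxc1 (-0.39). The fitted log2 differences of the 13 ran from -1.52, which was not called, to 3.39. Of 30 further histone methyltransferases, Smyd3 and Kmt5a were higher (0.41 each) and Kmt5b was lower (-0.30). Of 17 further acetyltransferase genes, Kat5 and Brpf1 were lower (-0.33 and -0.32) and none was higher, and of 16 further demethylases Kdm1b was higher (0.30). Of 19 further Polycomb subunits, Phf1 and Pcgf3 were higher (0.48 and 0.25), and Mtf2 and Rbbp4 lower (-0.29 and -0.20). Of 22 corepressor and remodelling subunits, 2 were higher and 3 lower, with Gatad2b (-0.39) and Smarca2 (0.30) the largest.

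Between the organs, the further Polycomb subunits had the lowest median of these lists. Of 21 tested, 4 were higher and 15 lower in liver in PB mice, and 2 and 15 in control mice, with median log2 differences of -0.62 and -0.59. Over all genes 36% were higher and 46% lower in PB mice and 36.8% and 44.1% in control mice, with medians of -0.11 and -0.08, and other scalings were not applied to this list. Phc1, a subunit of complex 1, averaged 13.4 in livers and 195 in kidneys of PB mice, and 22.6 in livers and 190.0 in kidneys of control mice, with the liver means under 50. The chromodomain protein Cbx6 had a log2 difference of -2.19 in PB mice and -2.09 in control mice. The PB effect differed between the tissues for 10 of the 129 related genes (7.75%, against 8.83% of all genes), higher in liver for 4, led by Gadd45b and by Pcgf1 (0.51), and lower for 6, led by Gatad2b (-0.44) and Cxxc1 (-0.43).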

How the data were processed

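Expression was measured in 20 livers and 20 kidneys with 1 array each. The deposited values are MAS5 signals, a linear intensity for each probe set, with the trimmed mean of an array brought to 150 by the authors. GCOS and MAS5 are named in the submitters' processing notes, and their versions are not given in the sources used here. The precision is limited by the number of arrays, 10 per group.

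Groups, animals and tissues were taken from the sample labels. The platform annotation, after old symbols were replaced by way of Entrez numbers in RefSeq (GRCm38.p6), gave 1 symbol for 34945 of 45037 probe sets, and 107 probe sets named a member, of which 13 members had 1 and 28 several. Log2 was taken after values below 1 had been raised to 1. PB and control were compared within a tissue, and tissues within a treatment and the difference of the PB effect in 1 fit of all 40 arrays, with limma (lmFit, eBayes with a trend), two-sided, Benjamini-Hochberg adjusted. Intervals are 95%. A member was described in full where it was called for PB or for the tissue difference of the PB effect, or had a fitted log2 difference of at least 1 between the organs in both kinds of mice, and otherwise up to 3 called members per role with the largest difference were named, with their relatives added for comparison. Of the related lists the 2 genes called with the largest difference were named, and any further ones were chosen after their values were seen, as were the Kat2a probe sets. The members and lists were chosen with earlier results of these data known. The related and marker lists were written by function for this purpose.

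Livers and kidneys with the same donor number were treated as 1 animal, and the animal as a fixed or random block was an alternative. Other alternatives were a signal filter at 100 or none, a floor of 50 or an offset of 16 before log2, quantile normalization, median centring, robust eBayes, Student's and Welch's t on log2 or linear signal, other choices of probe set, all 40 arrays in 1 fit and the number in the description label as covariate. Leaving out each liver, or each of the 40 arrays, and control livers with high marker sums together was chosen after seeing the data. The fits were tested on simulated data. The software was limma 3.58.1 in R 4.3.3, and pandas 2.3.3, NumPy 2.4.6 and matplotlib 3.10.9 in Python 3.11.15.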

Additional observations from a re-analysis of the deposited data

Results flagged for a closer look

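In 15 of 144 groups of 10 animals (10.4%), 1 array stood apart from the other 9 of its group for a tested member by the Dixon ratio, where chance gives about 1 in 20. In liver these were PB animal 13 for Bmi1 (282.5) and PB animal 20 for Kdm2a (104.4) and Hdac5 (115.6), each below the rest of the group. Control animal 2 was high for Kdm1a (360.9, next highest 258.5) and low for Kat2b (903). Control animal 4 was low for Setd2 (202.5), control animal 9 low for Ep300 (156.2) and control animal 1 high for Kdm3a (334.1). In kidney, PB animals 13, 16, 17 and 18 were low for Mbd3 (114.6), Kat2a (131.2), Kdm1a (250.4) and Kdm6b (119.1), PB animal 14 was low for Hdac4 (38.6) and Sirt1 (207.5), and control animal 4 low for Ehmt1 (196.3). Of the members called for PB, Kdm3a was the one with such an array in liver, and it stayed called without control liver 1.

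The PB effect differed between liver and kidney by the interaction test for Kdm4a (-0.54), Crebbp (-0.33) and Rnf2 (-0.30), as log2 differences of liver minus kidney.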

How the results depend on the processing

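The 6 calls in PB liver depended on the fit. Without a signal filter, when 18193 genes entered the fit and the adjustment, 3 members were called (Mbd1, Kdm3a and Kdm4a). With all 40 arrays in 1 fit 11 were called (1 higher, 10 lower), among them the 6. With each liver left out in turn the count was 3 to 8, lowest without PB liver 18, and without control livers 2, 3 and 5 together 5 were called, 4 of them among the 6. The count between the organs in control mice was 30 to 32 with control liver 1, 2, 3 or 5 left out (Mbd3 lost its call without control liver 5, adjusted p = 0.0501), and for the difference of the PB effect it was 3 to 4 with each array left out. Of 88 values of the 6 members under the planned settings, 79 kept their direction and call and 9 lost the call: Crebbp (no filter, floor of 50, quantile normalization, all probe sets, description number), Dnmt3b (no filter, Student's and Welch's t on log2 signal) and Ezh2 (no filter). The 3 tissue differences of the PB effect kept their calls in all 36. Between the organs, 5 of 445 values in control mice and 6 of 401 in PB mice lost the call, and Kdm1a in control mice turned to 0.11 (adjusted p = 0.13) when probe sets ending in _s_at, _x_at or _a_at were left out, which moves it to another probe set. With the animal as fixed replicate block 28 members were called between the organs in PB mice, 31 in control mice and 4 for the difference of the PB effect (Mbd1 added), and as random block 27, 31 and 3. At the fold and p limits of the methods, chosen after seeing the data, 1 member passed in liver with limma, 0 by Student's test on linear signal and 0 by Welch's test, and 2 when every probe set was used with limma or Student's test on log2 signal (Mbd1 and Kat2a). Apart from the move of Kdm1a to another probe set, the causes of these changes were not tested. Signals near 50, as of Ezh2 or Dnmt3b, limit what can be seen.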

Other observations

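The livers of the PB group were not alike for the members. In PB liver 12, 9 of the 36 members lay below the mean of the PB livers, and in PB livers 14, 18 and 20 it was 23 members each. The median deviation of the members from the PB mean was 0.12 on the log2 scale in PB liver 12 and -0.07 in PB liver 14, while that of all genes was 0.02 and 0.01. PB livers 13, 18 and 20 were the 3 lowest for Dnmt3b, and PB livers 13, 14 and 20 the 3 lowest for Mbd1 (419.8, 312.8 and 454.8) and for Tet2 (92.8, 69.3 and 76.2). In control livers the number of members below the group mean ran from 13 to 21.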
